A study of Mus musculus with 11 samples.

Results

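The cytosolic Hsp40 proteins, or J-domain co-chaperones, were examined in B16-OVA cells, a mouse melanoma line that carries ovalbumin. The 10 genes were taken by name from the DNAJA, DNAJB and DNAJC families, and all 10 were found by Ensembl identifier among the 54686 entries of the gene table. They were Dnaja1, Dnaja2 and Dnaja4 (class A), Dnajb1, Dnajb2, Dnajb4, Dnajb5 and Dnajb6 (class B), and Dnajc2 and Dnajc7 (class C). Of these, 9 reached 1 FPKM in at least 2 libraries and were tested with 12626 genes in all, and Dnaja4 was not. FPKM scales the fragments mapped to a gene to the gene's length and to the size of the library, so it can be set side by side between genes of different length.

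Cells of C57BL/6J origin received a siRNA pool against YAP and TAZ or a control siRNA. Heated cells were held at 45 °C for 1 h, beginning 48 h after transfection, and were then returned to 37 °C for 6 h before RNA was taken. The groups were YAP/TAZ siRNA with heat (3 libraries), YAP/TAZ siRNA without heat (3), control siRNA with heat (2, replicates 1 and 3) and control siRNA without heat (3). A replicate 2 of the control siRNA group with heat was not analysed here. All groups are transfected cultures of 1 tumour line, and heated RNA was taken at the end of the recovery period only. The labels do not tell whether replicates came from different cultures, and the p-values cover the spread between libraries alone, which may be technical. In bulk RNA, fewer cells of a kind and less RNA per cell cannot be told apart.

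A J-domain protein binds an unfolded client, hands it to Hsp70 and stimulates the ATPase of Hsp70 through the J-domain, which locks the client in place. Class A members carry a zinc-finger-like region behind the J-domain, class B members lack it, and class C members share only the J-domain. In heat-stressed cells the transcription factor HSF1 binds heat shock elements, runs of GAA and TTC units set in alternating orientation, and raises chaperone transcripts, of which Dnajb1 is the classical Hsp40 example. YAP (gene Yap1) and TAZ (gene Wwtr1) are transcriptional co-activators that reach DNA mainly through TEAD factors.

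Promoter sequence is shown for 3 members whose transcripts rose with heat under both siRNAs, Dnajb1, Dnaja1 and Dnajb6, so that their GAA and TTC units can be seen beside their RNA. The sequences are the plus strand of GRCm38.p6 from the RefSeq promoter table, whose windows run from 250 bases before to 50 bases after a transcript start. The Dnajb1 stretch is chr8:83608025-83608174, the Dnaja1 stretch chr4:40722333-40722362 and the Dnajb6 stretch chr5:29735843-29735872, and all 3 genes lie on the plus strand. Capitals mark every GAA or TTC in the Dnajb1 stretch, the 2 adjoining units of the Dnaja1 match and the 3 adjoining units of the Dnajb6 match. The Dnajb1 capitals are lone GAA triplets that do not form such a match, and the share of windows with lone triplets was not counted.
Dnajb1: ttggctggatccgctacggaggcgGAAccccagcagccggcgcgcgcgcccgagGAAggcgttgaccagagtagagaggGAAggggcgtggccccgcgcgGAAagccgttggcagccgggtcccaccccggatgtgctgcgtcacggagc
Dnaja1: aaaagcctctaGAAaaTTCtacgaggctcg
Dnajb6: cagctccgaGAAtcTTCcgGAAcgctagac
The Dnaja1 match began 124 bases before the start of its transcript and the Dnajb6 match 46 bases before. The Dnaja1 stretch lies within the annotated span of its gene, and the Dnajb6 stretch also lies in the first exon of a longer annotated Dnajb6 transcript.

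A search for GAANNTTC or TTCNNGAA, where N is any base and each motif reads as itself on the other strand, found these 2 units in 15.1% of 32851 windows of 300 bases. Windows were listed for 9 members, 19 in all, and 4 members held such a match: Dnajb6 in 2 of 2 windows, and Dnaja1 in 1 of 3, Dnaja4 in 1 of 2 and Dnajb4 in 1 of 2. Runs of 3 units, GAANNTTCNNGAA or its reverse complement TTCNNGAANNTTC, were in 0.603% of all windows, and among the members only Dnajb6 held one, in both its windows. These runs contain the 2-unit match. The 2 Dnajb6 windows overlap and hold the same run, so it is a single site. Neither of the 2 windows of Dnajb1, the member with the highest heat response, held either run. The TEAD core CATTCC or its reverse complement GGAATG was in 14.7% of all windows and in windows of 4 members, Dnaja1, Dnajb2, Dnajb5 and Dnajc7. The percentages are per window, whereas a member had up to 3 windows, so counts of members are not on the same footing. A match here describes letters in a window, and its absence says only that those letters are not there.

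The siRNA targets were checked first. Yap1 ranged from 2.26 to 2.61 FPKM in heated YAP/TAZ siRNA libraries, against 5.97 and 10.9 FPKM in heated control siRNA libraries, and from 2.54 to 3.02 FPKM in unheated YAP/TAZ siRNA libraries, against 5.80 to 15.6 FPKM in unheated control siRNA libraries. Wwtr1 ranged from 1.40 to 1.72 FPKM and from 1.65 to 1.83 FPKM in heated and unheated YAP/TAZ siRNA libraries, against 5.50 and 8.47 FPKM, and 5.38 to 8.20 FPKM, in the matching control siRNA libraries. For both genes, each YAP/TAZ siRNA library was below each control siRNA library, and the log2 difference was -1.43 ± 0.34 with heat and -1.38 ± 0.30 without for Yap1, and -1.62 ± 0.17 and -1.45 ± 0.16 for Wwtr1 (limma, Benjamini-Hochberg adjusted p = 0.00593, 0.00445, 6.1e-05 and 6.1e-05). No read counts came with the table. The commonest small step between low FPKM values corresponded to 15.2 to 22.0 M steps per library (M, mega), and whether a step is a read or a read pair is not known. Genes above 0 numbered 21534 to 21662 in heated YAP/TAZ siRNA, 20632 to 20914 in unheated YAP/TAZ siRNA, 23173 and 23242 in heated control siRNA and 20000 to 20365 in unheated control siRNA libraries. All 8 melanocyte markers were tested, with a summed level of 7340 to 8210 FPKM in heated YAP/TAZ siRNA, 8070 to 8430 FPKM in unheated YAP/TAZ siRNA, 6460 and 6710 FPKM in heated control siRNA and 7240 to 7850 FPKM in unheated control siRNA libraries, lowest in the heated control siRNA libraries. Macrophage markers, 2 of 6 tested, summed to 2.71 to 3.24 FPKM in heated YAP/TAZ siRNA, 1.47 to 1.90 FPKM in unheated YAP/TAZ siRNA, 6.13 and 6.63 FPKM in heated control siRNA and 2.28 to 2.60 FPKM in unheated control siRNA libraries, with Ptprc and C1qa listed at 0 throughout. Fibroblast markers, 2 of 6 tested, summed to 1.02 to 1.04, 1.44 to 1.63, 1.46 to 1.48 and 2.87 to 3.16 FPKM in the same order of groups, with Dcn at 0. Lymphocyte markers (1 of 6 tested), endothelial markers (0 of 4) and keratinocyte markers (0 of 4) reached at most 1.92, 1.46 and 0.0807 FPKM, with Cd8a, Nkg7, Cdh5 and Krt10 at 0. The part of the lower melanocyte and higher macrophage, lymphocyte and endothelial sums of heated control siRNA libraries in the results was not tested.

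Dnajb1, Dnaja1 and Dnajb6 rose with heat under either siRNA. Dnajb4 was called only under control siRNA, and Dnajc2 and Dnajc7 only under YAP/TAZ siRNA. That split is not itself a test of a difference between the siRNAs, which is the interaction given below. Tests were limma fits on log2(FPKM + 1) with Benjamini-Hochberg adjustment over the 12626 genes, and a call means an adjusted p under 0.05. Under YAP/TAZ siRNA, 5 of 9 tested members rose with heat (Dnajb1, Dnaja1, Dnajc2, Dnajc7 and Dnajb6) and 0 fell, where 50.3% of all tested genes were called, 18.6% rising and 31.7% falling. Under control siRNA, 4 of 9 rose (Dnajb1, Dnajb4, Dnaja1 and Dnajb6) and 0 fell, where 49.2% of all tested genes were called, 12.4% rising and 36.9% falling. The median log2 change of the tested members was 0.32 under YAP/TAZ siRNA and 0.21 under control siRNA, beside -0.09 and -0.16 over all tested genes. The interaction, the log2 heat response under YAP/TAZ siRNA minus that under control siRNA, was called for 5 of 9 members, negative for Dnajb1 and Dnajb4 and positive for Dnajc2, Dnaja1 and Dnaja2, where 37.9% of all tested genes were called, 24.6% positive and 13.4% negative. The members' median interaction was 0.14, beside 0.11 over all tested genes.

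**Figure D1:**
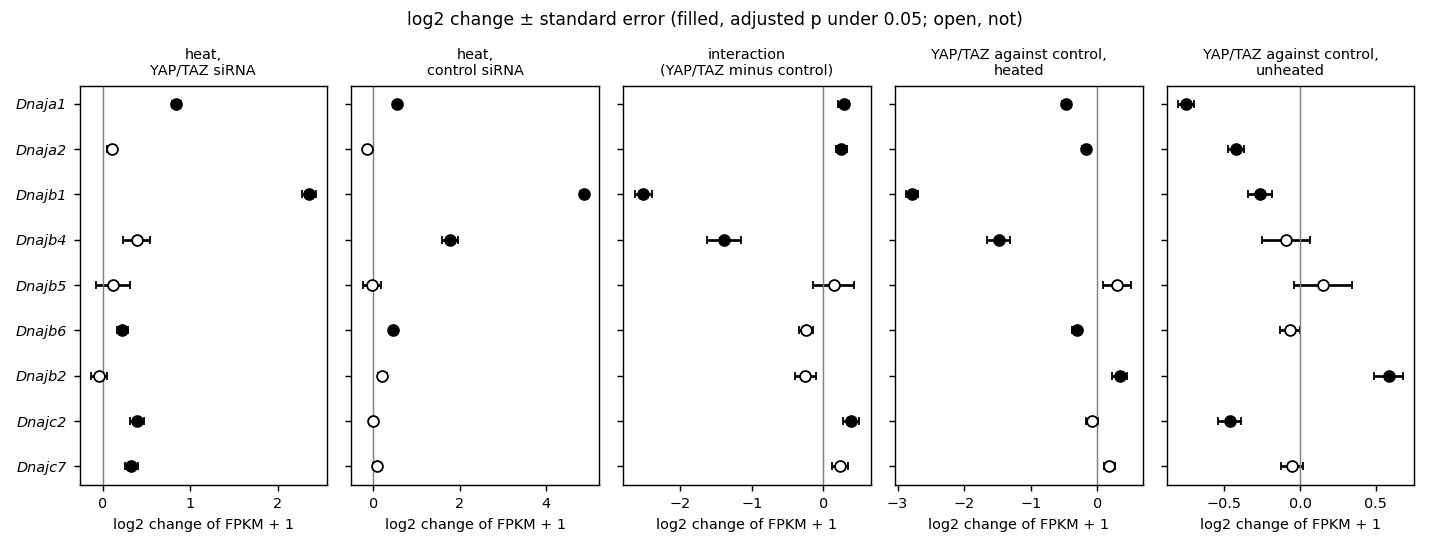
log2 change of FPKM + 1 (x axis) of the 9 tested J-domain genes (rows) in each comparison, with bars of 1 standard error; filled points have an adjusted p under 0.05 and open points do not. The heat response of Dnajb1 was 2.35 under YAP/TAZ siRNA and 4.87 under control siRNA, and most other members lay within 1 of 0.

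The scaling of the libraries matters for small changes. Over all tested genes the median log2 heat response under control siRNA was -0.16 as deposited, 0.01 after median-of-ratios scaling, -0.04 after quantile normalization and -0.26 after scaling each library to the same total, here called equal-total scaling. Under YAP/TAZ siRNA these medians were -0.09, -0.01, -0.01 and -0.25, and for the interaction 0.11, 0.01, 0.06 and 0.05. Of the calls over all genes, 37.0% were positive for heat under YAP/TAZ siRNA as deposited, against 48.9%, 48.7% and 19.9% under the 3 other scalings in that order. For heat under control siRNA, 25.1% were positive as deposited, against 50.6% after median-of-ratios scaling and 41.8% after quantile normalization. For the interaction the share was 64.7% as deposited and 48.0% after median-of-ratios scaling. Measured from the median of all genes, the interaction of Dnajb1 was -2.62, that of Dnajb4 -1.50, and those of Dnajc2, Dnaja1 and Dnaja2 were 0.28, 0.17 and 0.14.

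**Figure D2:**
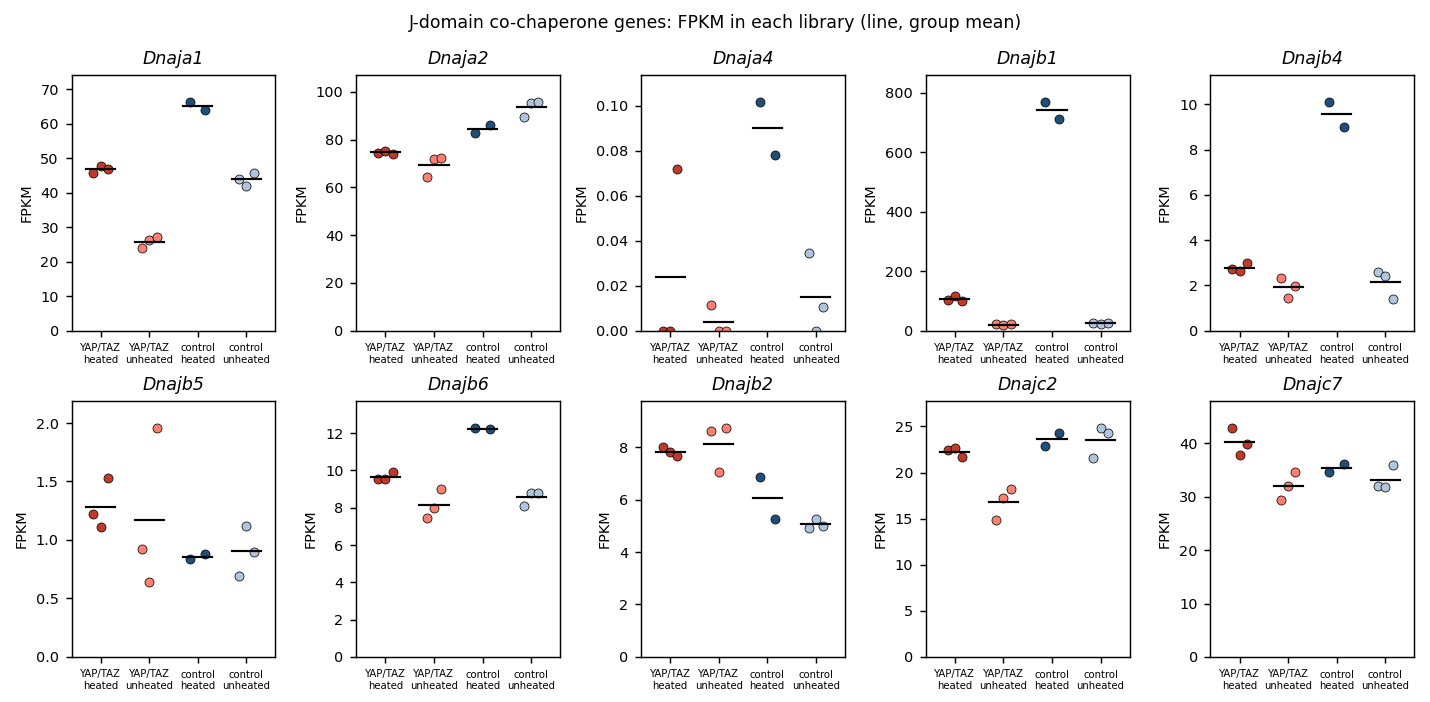
FPKM (y axis, linear and starting at 0, with its own range for each gene) of the 10 J-domain genes in every library, grouped on the x axis as YAP/TAZ siRNA heated, YAP/TAZ siRNA unheated, control siRNA heated and control siRNA unheated, with a line at each group mean. Dnajb1 and Dnajb4 stand high in the 2 heated control siRNA libraries, and Dnaja1 is lower in YAP/TAZ siRNA libraries at either temperature.

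Dnajb1 (ENSMUSG00000005483, chr8:83608193-83612653 on GRCm38), the stress-inducible Hsp40, gave the largest heat response of the members. It had 104, 117 and 101 FPKM in heated YAP/TAZ siRNA libraries, against 21.4, 18.5 and 20.8 FPKM in unheated YAP/TAZ siRNA libraries. Under control siRNA it had 769.8 and 713 FPKM with heat, against 25.8, 22.4 and 25.2 FPKM without heat. No groups overlapped in any of these comparisons, and the heated control siRNA libraries stood far above all others. The group means were 107 ± 8.64 FPKM in heated YAP/TAZ siRNA cells and 20.2 ± 1.53 FPKM in unheated YAP/TAZ siRNA cells (SD, n = 3 each), a ratio of 5.31. For control siRNA the means were 741.5 ± 40.0 FPKM with heat (SD, n = 2) and 24.5 ± 1.83 FPKM without (SD, n = 3), a ratio of 30.3. The log2 change with heat was 2.35 ± 0.08 under YAP/TAZ siRNA (adjusted p = 4e-07) and 4.87 ± 0.09 under control siRNA (adjusted p = 4.2e-09), where values after ± are standard errors. The 2 responses differed by -2.51 ± 0.12 (adjusted p = 3.3e-06).

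Heated YAP/TAZ siRNA cells held 0.145 of the Dnajb1 level of heated control siRNA cells, a log2 difference of -2.78 ± 0.09 (adjusted p = 9.5e-08). Without heat the difference was -0.26 ± 0.08 (adjusted p = 0.0217). That unheated difference missed the threshold after quantile normalization (-0.23, adjusted p = 0.0857) and without YAP/TAZ siRNA unheated replicate 2 (-0.20, adjusted p = 0.0785), control siRNA unheated replicate 1 (-0.22, adjusted p = 0.0765) or control siRNA unheated replicate 3 (-0.24, adjusted p = 0.0674). The interaction kept its sign and call under every alternative run, between -2.64 and -2.45.

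Dnajb4 (ENSMUSG00000028035, chr3:152178511-152210302), a close relative of Dnajb1, rose with heat under control siRNA at a much lower level. It had 2.71, 2.64 and 2.98 FPKM in heated YAP/TAZ siRNA libraries, against 2.33, 1.45 and 1.97 FPKM in unheated YAP/TAZ siRNA libraries. In control siRNA cells the values were 10.1 and 9.01 FPKM with heat, against 2.58, 2.41 and 1.40 FPKM without. The heated control siRNA libraries were above all 9 others, while the heated YAP/TAZ siRNA libraries lay just above their unheated counterparts. With heat the log2 change was 0.38 ± 0.16 under YAP/TAZ siRNA, which missed the threshold (adjusted p = 0.0686), and 1.77 ± 0.18 under control siRNA (adjusted p = 3.7e-05). The interaction of Dnajb4 was -1.39 ± 0.24 (adjusted p = 0.00191), and the difference between the siRNAs was -1.48 ± 0.18 with heat (adjusted p = 0.00011) and -0.09 ± 0.16 without (adjusted p = 0.669). Because the gene is low, the pseudocount sets much of the size: with a pseudocount of 5 the interaction was -0.86, the siRNA difference with heat -0.90 and the heat response under control siRNA 1.03, each still called. The heat response under YAP/TAZ siRNA passed the threshold after median-of-ratios scaling (0.44, adjusted p = 0.0449) and quantile normalization (0.54, adjusted p = 0.0185), in the fit of only those groups (adjusted p = 0.0467), and without YAP/TAZ siRNA unheated replicate 1 (0.49, adjusted p = 0.0482) or control siRNA unheated replicate 3 (0.38, adjusted p = 0.0199).

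Dnajb6 (ENSMUSG00000029131, chr5:29735688-29818134), which suppresses aggregation of polyglutamine proteins, rose modestly under both siRNAs. It had 9.54, 9.53 and 9.91 FPKM in heated YAP/TAZ siRNA libraries, against 7.47, 8.01 and 9.02 FPKM in unheated YAP/TAZ siRNA libraries. The control siRNA values were 12.3 and 12.2 FPKM with heat, against 8.12, 8.81 and 8.82 FPKM without heat. The heated groups lay above their unheated counterparts without overlap, and the unheated groups overlapped each other. Its log2 change with heat was 0.22 ± 0.06 under YAP/TAZ siRNA (adjusted p = 0.018) and 0.47 ± 0.07 under control siRNA (adjusted p = 0.00054). In heated cells the siRNA difference was -0.31 ± 0.07 (adjusted p = 0.00489), and in unheated cells it was -0.07 ± 0.06 (adjusted p = 0.432). The call under YAP/TAZ siRNA was lost after equal-total scaling (0.08, adjusted p = 0.301), in the fit of only those groups (adjusted p = 0.0546), and without YAP/TAZ siRNA heated replicate 3 (0.20, adjusted p = 0.0567), unheated replicate 1 (0.17, adjusted p = 0.0612) or unheated replicate 2 (0.21, adjusted p = 0.0552); quantile normalization gave 0.34. The interaction, -0.25 ± 0.10 (adjusted p = 0.0705), was called after median-of-ratios scaling (-0.36, adjusted p = 0.0188), quantile normalization (-0.30, adjusted p = 0.0443), equal-total scaling (-0.35, adjusted p = 0.0172), and without YAP/TAZ siRNA unheated replicate 1 (-0.30, adjusted p = 0.0301).

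Dnajb2 (ENSMUSG00000026203, chr1:75236406-75245692), a J-domain protein with ubiquitin-interacting motifs, was higher with YAP/TAZ siRNA. It had 8.01, 7.81 and 7.69 FPKM in heated YAP/TAZ siRNA libraries, against 6.85 and 5.27 FPKM in heated control siRNA libraries. In unheated cells it had 8.63, 7.04 and 8.73 FPKM with YAP/TAZ siRNA, against 4.91, 5.28 and 5.01 FPKM with control siRNA. Neither siRNA comparison had overlapping groups, whereas heated and unheated libraries overlapped under each siRNA. The log2 difference between the siRNAs was 0.33 ± 0.11 with heat (adjusted p = 0.0247) and 0.59 ± 0.10 without heat (adjusted p = 0.00075). With a pseudocount of 5 these were 0.22 and 0.38, each still called. The heated call was lost after median-of-ratios scaling (0.19, adjusted p = 0.177), quantile normalization (0.22, adjusted p = 0.122) and equal-total scaling (0.28, adjusted p = 0.0723), in the fit of only those groups (adjusted p = 0.0533), and without YAP/TAZ siRNA heated replicate 1 (0.32, adjusted p = 0.0613) or control siRNA heated replicate 3 (0.17, adjusted p = 0.236). For heat, the log2 change was -0.04 ± 0.10 under YAP/TAZ siRNA (adjusted p = 0.731) and 0.21 ± 0.11 under control siRNA (adjusted p = 0.132). The value under control siRNA was called after median-of-ratios scaling (0.39, adjusted p = 0.0174), quantile normalization (0.41, adjusted p = 0.0139) and without control siRNA heated replicate 3 (0.37, adjusted p = 0.0265). The interaction of -0.25 ± 0.14 (adjusted p = 0.194) was likewise called without that replicate (-0.42, adjusted p = 0.0452).

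Dnajb5 (ENSMUSG00000036052, chr4:42949814-42959425), the other close relative of Dnajb1, stayed near the detection filter, reaching 1 FPKM in 5 of 11 libraries. Its means were 1.29 ± 0.218 FPKM in heated YAP/TAZ siRNA, 1.17 ± 0.692 FPKM in unheated YAP/TAZ siRNA and 0.902 ± 0.212 FPKM in unheated control siRNA cells (SD, n = 3 each), and 0.858 ± 0.0343 FPKM in heated control siRNA cells (SD, n = 2). The widest spread was in unheated YAP/TAZ siRNA libraries, which had 0.921, 0.643 and 1.96 FPKM. Dnajb5 passed no comparison, with log2 changes of 0.11 ± 0.19 for heat under YAP/TAZ siRNA (adjusted p = 0.643) and -0.03 ± 0.21 under control siRNA (adjusted p = 0.927). Without YAP/TAZ siRNA unheated replicate 3 the heat response under YAP/TAZ siRNA was 0.36 (adjusted p = 0.0388).

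Among the class A genes, Dnaja1 (ENSMUSG00000028410, chr4:40722150-40737149), a general Hsp70 partner, rose with heat and was lower with YAP/TAZ siRNA at either temperature. It had 45.8, 47.8 and 46.7 FPKM in heated YAP/TAZ siRNA libraries, against 23.9, 26.1 and 27.0 FPKM in unheated YAP/TAZ siRNA libraries. With control siRNA it had 66.3 and 64.0 FPKM after heat, against 44.0, 41.9 and 45.8 FPKM without heat. Both heat comparisons and both siRNA comparisons were free of overlap, and the heated YAP/TAZ siRNA libraries sat close to the unheated control siRNA libraries. The means differed with heat by 21.1 FPKM under YAP/TAZ siRNA and by 21.3 FPKM under control siRNA, ratios of 1.82 and 1.49. On the log2 scale the change with heat was 0.84 ± 0.05 under YAP/TAZ siRNA (adjusted p = 7.8e-06) and 0.56 ± 0.06 under control siRNA (adjusted p = 5.4e-05). The siRNA difference was -0.47 ± 0.06 with heat (adjusted p = 0.00015) and -0.75 ± 0.05 without (adjusted p = 4.7e-06). These 4 calls held under every alternative run. The interaction, 0.28 ± 0.08 (adjusted p = 0.0217), did not: it was 0.16 after median-of-ratios scaling (adjusted p = 0.159), 0.15 after quantile normalization (adjusted p = 0.128), 0.20 after equal-total scaling (adjusted p = 0.0865), and 0.26 without control siRNA heated replicate 3 (adjusted p = 0.0731).

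Dnaja2 (ENSMUSG00000031701, chr8:85537633-85555344), the other abundant class A partner of Hsp70, was lower with YAP/TAZ siRNA. It had 74.5, 75.5 and 74.1 FPKM in heated YAP/TAZ siRNA libraries, against 82.8 and 86.1 FPKM in heated control siRNA libraries. Without heat it had 64.4, 71.9 and 72.4 FPKM with YAP/TAZ siRNA, against 89.5, 95.3 and 95.8 FPKM with control siRNA. Every YAP/TAZ siRNA library was below every control siRNA library. The log2 difference was -0.17 ± 0.06 with heat (adjusted p = 0.0292) and -0.42 ± 0.05 without (adjusted p = 0.00013). With heat, the difference was -0.34 after median-of-ratios scaling, -0.32 after quantile normalization and -0.26 after equal-total scaling, and it missed the threshold without YAP/TAZ siRNA heated replicate 1 (-0.17, adjusted p = 0.067) or 3 (-0.17, adjusted p = 0.0638) and without control siRNA heated replicate 1 (-0.20, adjusted p = 0.0652) or 3 (-0.15, adjusted p = 0.15).

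The heat responses of Dnaja2 were 0.10 ± 0.05 under YAP/TAZ siRNA (adjusted p = 0.129) and -0.15 ± 0.06 under control siRNA (adjusted p = 0.0635), and the second value lay 0.02 above the median of all genes. Their sign turned with the scaling: under control siRNA the response was 0.06 after median-of-ratios scaling and -0.22 after equal-total scaling (adjusted p = 0.0101), and under YAP/TAZ siRNA it was 0.19 after median-of-ratios scaling (adjusted p = 0.0111), -0.14 after quantile normalization (adjusted p = 0.0474) and -0.06 after equal-total scaling. Without YAP/TAZ siRNA unheated replicate 1 the response under control siRNA was -0.15 (adjusted p = 0.0243). The interaction of 0.25 ± 0.08 (adjusted p = 0.0321) was 0.13 (adjusted p = 0.214), -0.01 (adjusted p = 0.916) and 0.16 (adjusted p = 0.15) after median-of-ratios, quantile and equal-total scaling. It also missed the threshold without YAP/TAZ siRNA heated replicate 1 (adjusted p = 0.0601), 2 (adjusted p = 0.0549) or 3 (adjusted p = 0.0513), control siRNA heated replicate 1 (adjusted p = 0.117) or 3 (adjusted p = 0.0535), and control siRNA unheated replicate 2 (adjusted p = 0.0663) or 3 (adjusted p = 0.0697), at values of 0.22 to 0.28.

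Dnaja4 (ENSMUSG00000032285, chr9:54698873-54716315), a class A gene that is heat-inducible in some cells, was listed at 0 in 5 of 11 libraries and did not exceed 0.102 FPKM. It had 0, 0 and 0.072 FPKM in heated YAP/TAZ siRNA libraries, 0.0114, 0 and 0 FPKM in unheated YAP/TAZ siRNA libraries, 0.102 and 0.0783 FPKM in heated control siRNA libraries and 0.0347, 0 and 0.0103 FPKM in unheated control siRNA libraries. Those levels lie below the filter and near the value of a few fragments, so no change is given.

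Dnajc2 (ENSMUSG00000029014, chr5:21757267-21785251), which sits at the ribosome as the partner of Hspa14, was low in unheated YAP/TAZ siRNA cells. It had 22.5, 22.7 and 21.7 FPKM in heated YAP/TAZ siRNA libraries, against 14.9, 17.3 and 18.3 FPKM in unheated YAP/TAZ siRNA libraries. The control siRNA libraries held 22.9 and 24.3 FPKM with heat, against 21.5, 24.8 and 24.3 FPKM without. The unheated YAP/TAZ siRNA libraries were the lowest, the heated YAP/TAZ siRNA libraries lay just below the heated control siRNA libraries, and the 2 control siRNA groups overlapped. Heat changed Dnajc2 by 0.39 ± 0.08 under YAP/TAZ siRNA (adjusted p = 0.00293), with a ratio of means of 1.32, and the change was 0.01 ± 0.09 under control siRNA (adjusted p = 0.969). After equal-total scaling the response under YAP/TAZ siRNA was 0.24, still called. The siRNA difference was -0.08 ± 0.09 with heat (adjusted p = 0.466), called only after median-of-ratios scaling (-0.24, adjusted p = 0.0359), and -0.46 ± 0.08 without heat (adjusted p = 0.0009). The interaction was 0.39 ± 0.12 (adjusted p = 0.0281). It missed the threshold after median-of-ratios scaling (0.27, adjusted p = 0.0938), quantile normalization (0.28, adjusted p = 0.0876) and equal-total scaling (0.31, adjusted p = 0.0723), and without YAP/TAZ siRNA heated replicate 1 (0.38, adjusted p = 0.0562) or 2 (0.37, adjusted p = 0.0504), control siRNA heated replicate 1 (0.34, adjusted p = 0.108), or control siRNA unheated replicate 2 (0.35, adjusted p = 0.061) or 3 (0.36, adjusted p = 0.0616).

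Dnajc7 (ENSMUSG00000014195, chr11:100582818-100620168), a tetratricopeptide repeat protein that binds both Hsp70 and Hsp90, rose with heat under YAP/TAZ siRNA. It had 42.8, 37.8 and 40.0 FPKM in heated YAP/TAZ siRNA libraries, against 29.3, 32.0 and 34.6 FPKM in unheated YAP/TAZ siRNA libraries. With control siRNA it had 34.6 and 36.2 FPKM after heat, against 32.0, 31.8 and 35.9 FPKM without heat. The heated YAP/TAZ siRNA group was above all others, and the control siRNA groups overlapped. The heat response was 0.32 ± 0.07 under YAP/TAZ siRNA (adjusted p = 0.00597), which became 0.16 after equal-total scaling (adjusted p = 0.0522). Under control siRNA it was 0.09 ± 0.08 (adjusted p = 0.402), and it was called after median-of-ratios scaling (0.29, adjusted p = 0.0171) and quantile normalization (0.20, adjusted p = 0.0328). The interaction of 0.23 ± 0.11 missed the threshold (adjusted p = 0.129), as did the siRNA differences of 0.18 ± 0.08 with heat (adjusted p = 0.0961) and -0.05 ± 0.07 without (adjusted p = 0.579).

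**Figure D3:**
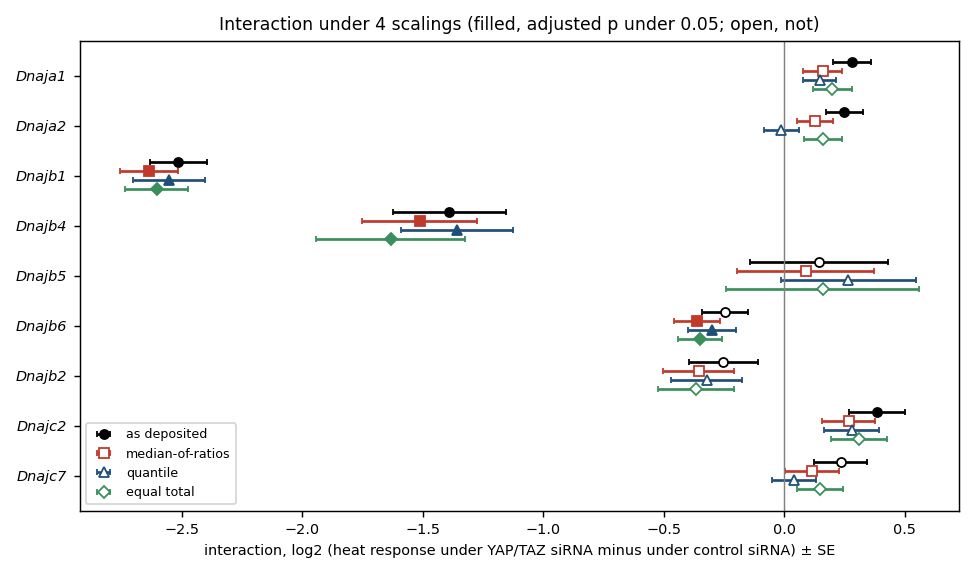
Interaction (x axis, log2 heat response under YAP/TAZ siRNA minus that under control siRNA, with bars of 1 standard error) of the 9 tested J-domain genes (rows) under the deposited scaling and 3 others; filled points have an adjusted p under 0.05. Dnajb1 and Dnajb4 were negative and called under all 4 scalings, whereas the positive calls of Dnaja1, Dnaja2 and Dnajc2 were, among these 4, made only with the deposited scaling.

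Some annotated exons overlap those of other genes, and the strandedness of the counting is not given in the sources used here, so reads of opposite strands cannot be told apart. Dnaja1 overlaps Smu1, Gm6297 and Mir207, Dnajb6 overlaps Gm5129, Dnaja4 overlaps Wdr61, and Dnajc7 overlaps Cnp and Nkiras2. Smu1 averaged 30.1 FPKM in heated YAP/TAZ siRNA, 28.3 in unheated YAP/TAZ siRNA, 28.3 in heated control siRNA and 32.5 in unheated control siRNA cells, a narrower range than Dnaja1. In the limma fit of the deposited values the Smu1 interaction was 0.28 (adjusted p = 0.0158), beside 0.28 for Dnaja1. Like Dnaja1, Smu1 was lower with YAP/TAZ siRNA in unheated cells (-0.20, adjusted p = 0.00888). With heat under control siRNA Smu1 fell (-0.19, adjusted p = 0.0162), where Dnaja1 rose. Mir207, on the strand of Dnaja1, averaged 0.398, 0.0535, 2.30 and 0.081 FPKM in the same order of groups, and so was higher in both heated groups. Gm6297 averaged 0.945, 0.282, 1.05 and 0.153 FPKM in that order. Nkiras2 averaged 13.5, 8.16, 3.56 and 11.2 FPKM in the same order of groups, and Cnp 4.94, 5.29, 2.03 and 2.62 FPKM. By limma the interaction was 2.27 for Nkiras2 (adjusted p = 0.00608) and 0.17 for Cnp (adjusted p = 0.156), beside 0.23 for Dnajc7 (adjusted p = 0.129). The part of these neighbours in the Dnaja1 and Dnajc7 values was not tested.

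Set against control siRNA at the same temperature, Dnajb1, Dnaja1 and Dnaja2 were lower and Dnajb2 was higher with YAP/TAZ siRNA in both heated and unheated cells, as deposited. Both Dnaja1 calls held under every alternative run. The heated calls of Dnajb2 and Dnaja2 and the unheated call of Dnajb1 were lost in some of those runs, as given above. In heated cells 5 of 9 members were lower (Dnajb1, Dnajb4, Dnaja1, Dnajb6 and Dnaja2) and 1 higher (Dnajb2), where 54.3% of all tested genes were called, 17.9% lower and 36.3% higher. The members' median log2 difference was -0.17, beside 0.13 over all tested genes. Under median-of-ratios scaling the median over all genes was 0.00, and 48.9% of the calls were higher, against 66.9% as deposited and 55.8% after quantile normalization. In unheated cells 4 of 9 were lower (Dnaja1, Dnaja2, Dnajc2 and Dnajb1) and 1 higher (Dnajb2), where 49.0% of all tested genes were called, 21.9% lower and 27.1% higher. Called in either direction, 5 of 9 members in unheated cells is close to the share of all genes. The median there was -0.09 for the members and 0.02 for all tested genes. The comparisons share libraries: each heated or unheated group enters both a heat and a siRNA comparison.

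The order of the levels changed mainly through Dnajb1. In heated YAP/TAZ siRNA and heated control siRNA cells Dnajb1 ranked highest, ahead of Dnaja2, Dnaja1, Dnajc7, Dnajc2 and Dnajb6, with no overlap between neighbours in the order. Dnajb2, Dnajb4, Dnajb5 and Dnaja4 followed in heated YAP/TAZ siRNA cells, and in heated control siRNA cells Dnajb4 stood above Dnajb2. In unheated YAP/TAZ siRNA cells the order was Dnaja2, Dnajc7, Dnaja1, Dnajb1, Dnajc2, Dnajb6, Dnajb2, Dnajb4, Dnajb5 and Dnaja4, and the ranges of Dnajb6 and Dnajb2, and of Dnajb4 and Dnajb5, overlapped. In unheated control siRNA cells Dnaja1 was above Dnajc7, and the neighbours Dnajb1 and Dnajc2 overlapped.

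Summed over the 10 genes, the J-domain RNA was 305.6 to 322 FPKM in heated YAP/TAZ siRNA libraries, against 173 to 195 FPKM in unheated YAP/TAZ siRNA libraries. It was 951 and 1006 FPKM in heated control siRNA libraries, against 229 to 243 FPKM in unheated control siRNA libraries. Dnajb1 supplied 33.1 to 36.4% of the sum in heated YAP/TAZ siRNA libraries, 10.1 to 12.3% in unheated YAP/TAZ siRNA libraries, 75.0 and 76.5% in heated control siRNA libraries and 9.57 to 11.3% in unheated control siRNA libraries. Without Dnajb1 the groups lay much closer, at 205 to 207 FPKM in heated YAP/TAZ siRNA, 152 to 174 FPKM in unheated YAP/TAZ siRNA, 237 and 238 FPKM in heated control siRNA and 203 to 218 FPKM in unheated control siRNA libraries. The class A sum was 120.2 to 123 FPKM with heat and 88.3 to 99.4 FPKM without heat under YAP/TAZ siRNA, against 149 and 150.2 FPKM with heat and 133.5 to 142 FPKM without heat under control siRNA. The class C sum spanned 44.2 to 65.3 FPKM over all libraries.

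**Figure D4:**
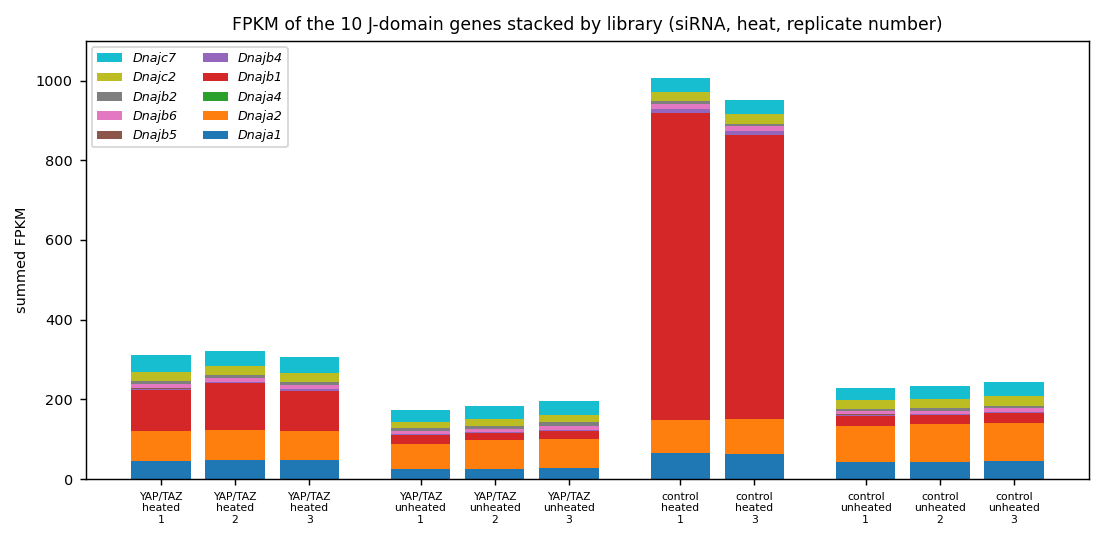
Summed FPKM (y axis, starting at 0) of the 10 J-domain genes in each library (x axis, labelled by siRNA, heat and replicate number), stacked by gene. Dnajb1 fills most of the bar in the 2 heated control siRNA libraries, where the sum was 951 and 1006 FPKM, and the other genes add up to between 152 and 238 FPKM in every library.

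The Hsp70 partners changed in the same libraries. Hspa8, Hspa1a and Hspa1b together held 604 to 774 FPKM in heated YAP/TAZ siRNA libraries, 289 to 301.5 FPKM in unheated YAP/TAZ siRNA libraries, 2932 and 3035 FPKM in heated control siRNA libraries and 494 to 517.5 FPKM in unheated control siRNA libraries. The J-domain sum was 0.416 to 0.515 of this Hsp70 sum in heated YAP/TAZ siRNA libraries, against 0.575 to 0.646 in unheated ones, and 0.324 and 0.332 in heated control siRNA libraries, against 0.458 to 0.470 in unheated ones. This ratio was lower with heat under either siRNA, and higher with YAP/TAZ siRNA than with control siRNA at either temperature, without overlap. Multiplying a library by a single factor does not change it, but quantile normalization can, and the ratio was not computed after that. Hspa1a and Hspa1b are near-identical copies between which reads can be divided uncertainly, so they are given only within this sum with Hspa8. In unheated cells Hspa8 alone averaged 292 FPKM with YAP/TAZ siRNA and 503 FPKM with control siRNA. The unheated ratio is thus nearly that of the J-domain sum to Hspa8.

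Other genes of the chaperone cycle were taken from lists. Counts of called genes in the lists are those of the deposited scaling unless another is named. They are to be read beside the shares of all tested genes called. With heat, 18.6% rose and 31.7% fell under YAP/TAZ siRNA, and 12.4% rose and 36.9% fell under control siRNA. With YAP/TAZ siRNA, 17.9% were lower and 36.3% higher in heated cells, and 21.9% and 27.1% in unheated cells. The interaction was positive for 24.6% and negative for 13.4%. Called in either direction, several lists lie near the share of all genes. Of the 6 cytosolic Hsp70 genes, 4 rose and 2 fell with heat under YAP/TAZ siRNA, and 2 rose and 1 fell under control siRNA, which became 3 and 0 after median-of-ratios scaling and 2 and 2 after the other scalings. Hspa8, the constitutive Hsp70, averaged 470.1 FPKM in heated YAP/TAZ siRNA cells and 292 FPKM in unheated YAP/TAZ siRNA cells, and 523 FPKM and 503 FPKM in the matching control siRNA cells, with an interaction of 0.63 ± 0.07 (adjusted p = 0.00014). Hspa14, the partner of Dnajc2, averaged 21.3 and 18.5 FPKM in heated and unheated YAP/TAZ siRNA cells, and 18.2 and 24.3 FPKM in heated and unheated control siRNA cells. Its change with heat under control siRNA was -0.40 ± 0.07 (adjusted p = 0.00165; -0.20 and adjusted p = 0.0534 after median-of-ratios scaling), and its interaction was 0.60 ± 0.10 (adjusted p = 0.00163). The interactions of Hspa8 and Hspa14 kept sign and call under the 3 other scalings.

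Of 9 nucleotide exchange factors, which release ADP and client from Hsp70, 5 rose and 2 fell with heat under YAP/TAZ siRNA, and 4 rose and 2 fell under control siRNA, and 5 were lower and 0 higher with YAP/TAZ siRNA at either temperature. In heated cells 8 were lower under each of the 3 other scalings, and 3 rose with heat under YAP/TAZ siRNA after equal-total scaling. Bag3 averaged 95.5 FPKM in heated and 23.6 FPKM in unheated YAP/TAZ siRNA cells, against 249.5 and 23.3 FPKM in the matching control siRNA cells, with an interaction of -1.40 ± 0.11 (adjusted p = 3e-05). Hsph1 had an interaction of -0.60 ± 0.10 (adjusted p = 0.00203) and siRNA differences of -1.69 with heat and -1.10 without heat. Bag2, in contrast, had a positive interaction of 0.50 ± 0.09 (adjusted p = 0.00199), at 5.41 and 5.21 FPKM in heated and unheated YAP/TAZ siRNA cells, against 5.88 and 8.41 FPKM in heated and unheated control siRNA cells. These calls of Bag3, Hsph1 and Bag2 held under the 3 other scalings. Of 5 genes of the handover from Hsp70 to Hsp90, all 5 rose with heat under YAP/TAZ siRNA and 4 under control siRNA (4 and 4 after quantile and equal-total scaling), while 4 were lower and 0 higher with YAP/TAZ siRNA at either temperature. Hsp90aa1, the inducible Hsp90, averaged 525.5 and 249.9 FPKM in heated and unheated YAP/TAZ siRNA cells, against 1603 and 525.4 FPKM in heated and unheated control siRNA cells. A list of 4 genes held the heat shock factors Hsf1, Hsf2 and Hsf4 and the heat shock factor binding protein gene Hsbp1. With heat under YAP/TAZ siRNA 2 rose (Hsbp1 and Hsf1) and 0 fell. Under control siRNA 2 rose (Hsbp1 and Hsf2) and 1 fell (Hsf1). Equal-total scaling gave 1 rising and 2 falling in both comparisons. Hsf1, the main heat-activated factor, averaged 4.88 and 3.98 FPKM in heated and unheated YAP/TAZ siRNA cells, against 5.51 and 6.31 FPKM in heated and unheated control siRNA cells, and its siRNA difference without heat was -0.55 ± 0.05 (adjusted p = 2.9e-05).

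Further J-domain genes, of the cytosol and nucleus and of other compartments, did not share a direction. Their counts are to be read beside the same shares of all tested genes. Among 12 tested members of a list of 15 other cytosolic and nuclear J-domain genes, 4 rose and 3 fell with heat under YAP/TAZ siRNA, and 2 rose and 4 fell under control siRNA, with medians of -0.05 and -0.14 that turned positive after median-of-ratios and quantile scaling. Dnajc24, which takes part in diphthamide synthesis, averaged 7.93 and 8.55 FPKM in heated and unheated YAP/TAZ siRNA cells and 3.59 and 8.92 FPKM in heated and unheated control siRNA cells, and its interaction was 1.01 ± 0.11 (adjusted p = 0.00015). Dnajb7 averaged 1.67 FPKM with heat and 0.118 FPKM without heat under control siRNA, and rose by 1.24 ± 0.13 on the log2 scale (adjusted p = 4.1e-05), or by 2.12 after equal-total scaling. Its means of 0.514 and 0.123 FPKM in heated and unheated YAP/TAZ siRNA cells lie below the filter, so it was tested only through the heated control siRNA libraries, where it is high, and the filter fixed that direction. Of 11 endoplasmic reticulum genes, 2 rose and 5 fell with heat under YAP/TAZ siRNA, and 2 rose and 4 fell under control siRNA (3 and 3 after median-of-ratios and quantile scaling). After equal-total scaling 1 rose and 9 fell under YAP/TAZ siRNA, and 1 rose and 5 fell under control siRNA. Dnajb9, a target of the unfolded protein response, averaged 10.2 and 12.8 FPKM in heated and unheated YAP/TAZ siRNA cells, against 22.4 and 8.57 FPKM in heated and unheated control siRNA cells, with an interaction of -1.60 ± 0.11 (adjusted p = 2e-05). Of 7 tested mitochondrial genes, 3 rose and 0 fell with heat under YAP/TAZ siRNA, 0 rose and 4 fell under control siRNA, and 5 had a positive interaction, with a list median of 0.48 beside 0.11 over all genes. The count of 5 was the same under the 3 other scalings, while 2 fell under control siRNA after median-of-ratios and quantile scaling. Under YAP/TAZ siRNA 4 rose after those scalings and 1 after equal-total scaling.

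The tested genes with the most similar profiles were found by the root mean square difference of log2(FPKM + 1) over the 11 libraries, each gene taken relative to its mean in unheated control siRNA libraries. Nearest to Dnajb1 were Bag3 at 0.66, Gadd45g at 0.75 and Atf3 at 0.75. Gadd45g, a stress-inducible gene, averaged 3.78 FPKM in heated and 0.627 FPKM in unheated YAP/TAZ siRNA cells, and 30.3 FPKM in heated and 1.32 FPKM in unheated control siRNA cells. Nearest to Dnaja1 were Ahsa1 at 0.13, Hsp90ab1 at 0.14 and Rassf1 at 0.14. Ahsa1, a co-chaperone that stimulates the ATPase of Hsp90, averaged 48.9 FPKM in heated and 30.4 FPKM in unheated YAP/TAZ siRNA cells, and 74.0 FPKM in heated and 53.8 FPKM in unheated control siRNA cells. Nearest to Dnajb4 were Sectm1b at 0.18, Uncx at 0.18 and Ly6g6c at 0.19, each with a mean of at most 2.30 FPKM in any group. All 3 passed the filter only through the heated control siRNA libraries, so the filter fixed that they are high there, and a low gene has little room to move on this scale.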

How the data were processed

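RNA of 11 B16-OVA libraries was analysed as the gene FPKM values that the authors deposited in 1 table. The build was GRCm38, per the submitters' processing notes, which list, without role or order, StringTie, SAMtools, HISAT2, Trimmomatic 0.36 and, as a tool of the authors, DESeq2. Annotation release, settings and strandedness: not given in the sources used here. Of the entries, 54104 had Ensembl identifiers, 54038 of them with a symbol, and 582 were assembled loci holding 0.535 to 0.977% of summed FPKM. Positions came from GENCODE M21 and promoters from the RefSeq table of GRCm38.p6; 9 members matched a promoter, Dnajc2 did not, and protein sequences were not used here.

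No counts were available, so no count model, interval or floor was used. Genes that reached 1 FPKM in 2 or more libraries were fitted as log2(FPKM + 1) with limma 3.58.1 under R 4.3.3, using trended empirical Bayes, a mean for each of the 4 groups, no covariate and 7 residual degrees of freedom; p-values were adjusted by Benjamini-Hochberg within each of 5 comparisons at 0.05. This scale understates changes of low genes. The fit was tested on simulated data with independent values, which cannot show how the scaling of the libraries affects the calls. Groups came from the labels. Alternatives were pseudocounts of 0.1 and 5, no filter or 5 FPKM, median-of-ratios, quantile and equal-total scaling, no trend, only the groups compared, a replicate block, and each library left out. Named were all members, the siRNA targets, up to 3 called genes per list and comparison by p-value, and the 3 nearest profiles of Dnajb1, Dnaja1 and Dnajb4. Members, lists and tests were chosen with earlier results of these data known. Figures used matplotlib 3.10.9, and tables pandas 2.3.3 and numpy 2.4.6, under Python 3.11.15.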

Additional observations from a re-analysis of the deposited data

Results flagged for a closer look

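For 5 J-domain genes the log2 response to heat differed between the siRNAs by the interaction test of the limma fit, and they are given here for that reason. The heat response under YAP/TAZ siRNA minus that under control siRNA was -2.51 for Dnajb1, -1.39 for Dnajb4, 0.39 for Dnajc2, 0.28 for Dnaja1 and 0.25 for Dnaja2, where 37.9% of all tested genes were called. The calls of Dnajb1 and Dnajb4 held under every alternative run, whereas those of Dnajc2, Dnaja1 and Dnaja2 were lost under all 3 other scalings and without some single libraries. The heated control siRNA group behind each value has 2 libraries. No group had enough libraries for a check of single outlying values.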

How the results depend on the processing

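Of the counts of called members, 188 stayed within 1.5 times the main count and 20 did not; of the members' single values, 849 kept direction and side of the threshold, 41 lost a call, 21 gained one and 20 changed sign. The causes were not tested. The count of members with a positive interaction, 3, was 0 under median-of-ratios, quantile and equal-total scaling; that of members higher with YAP/TAZ siRNA in heated cells, 1, was 0 under these scalings and with only the groups compared. Members that rose with heat under YAP/TAZ siRNA, 5, numbered 3 after equal-total scaling, and 1 fell after quantile normalization, against 0. Under control siRNA 1 fell after equal-total scaling and 1 with the replicate block, against 0. With 1 library left out, 4 to 6 rose and 0 fell under YAP/TAZ siRNA, 4 to 5 rose and 0 to 1 fell under control siRNA, 1 to 3 had a positive and 2 to 3 a negative interaction, 0 to 1 were higher and 4 to 5 lower with YAP/TAZ siRNA in heated cells, and 1 was higher and 3 to 4 lower in unheated cells. Signs turned for heat under control siRNA in Dnaja2 (0.0619) and Dnajb5 (0.0721) after median-of-ratios scaling and Dnajc2 (-0.0689) after equal-total scaling; under YAP/TAZ siRNA in Dnajb2 after median-of-ratios (0.0358) and quantile (0.0868) scaling and in Dnaja2 after quantile (-0.14) and equal-total (-0.0614) scaling; and after quantile normalization in the Dnaja2 interaction (-0.0123) and the unheated Dnajc7 siRNA difference (0.0124). Leaving out 1 library gave -0.0555 to 0.0479 for Dnajc2 and -0.11 to 0.0526 for Dnajb5 (heat, control siRNA), -0.0641 to 0.36 for Dnajb5 and -0.13 to 0.0053 for Dnajb2 (heat, YAP/TAZ siRNA), -0.0363 to 0.39 for the Dnajb5 interaction, and, for the unheated siRNA difference, -0.11 to 0.0043 in Dnajc7, -0.27 to 0.0287 in Dnajb4 and -0.0928 to 0.33 in Dnajb5. Dnaja4 entered a fit only without the filter.

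Same-numbered libraries had correlations of deviations from -0.11 to 0.13 (15 pairs), others from -0.18 to 0.16 (30 pairs). In groups of 2 or 3 libraries these deviations depend on each other, so they cannot settle whether replicate numbers pair the libraries. With the replicate block, the added call among the members was Dnaja2 for heat under control siRNA (-0.13, adjusted p = 0.0427). Over all genes the block raised the calls in every comparison, for the interaction to 3385 positive and 1909 negative. Over all genes, 1560 rose under control siRNA as deposited, 4117 without a filter, 892 at 5 FPKM and 2809 after median-of-ratios scaling, and 4654 fell, 2744 after median-of-ratios scaling. Under YAP/TAZ siRNA 2347 rose, 1435 after equal-total scaling, and 3999 fell, 2546 at 5 FPKM. Positive interactions numbered 3102, 1998 after median-of-ratios scaling, and negative ones 1689, 3270 without a filter and 937 at 5 FPKM. With YAP/TAZ siRNA 2266 genes were lower when heated, 4407 without a filter and 1449 at 5 FPKM, and 3420 were higher when unheated, 2171 at 5 FPKM. Depth limits Dnaja4, Dnajb5 and Dnajb4 most.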
